A study of Mus musculus with 3 samples.

Results

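Strong FLI1 bins at promoters were 400-bp bins of the mouse genome (build mm9) that held 100 or more FLI1 reads but fewer than 6 RUNX1 reads and fewer than 15 input reads, with a centre within 1 kb of the transcription start site (TSS) of a protein-coding transcript. They were thus chosen by their FLI1, RUNX1 and input read counts and by their distance to a TSS. Of 6637250 bins, 7882 held 100 or more FLI1 reads, and 3258 of these lay within 1 kb of a TSS. The RUNX1 limit left out 458 of them and the input limit 5, so that 2795 bins remained, which joined into 2566 regions where they touched. Most regions (2345) were 1 bin wide, 214 were 2 bins, 6 were 3 bins and 1 was 4 bins.

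The cells were megakaryocytes (MKs) from fetal livers of wild-type CD1 mice, taken at embryonic day 15 per the sample labels and a day earlier per the methods, and cultured for 5 days with thrombopoietin to the mature stage, MK Mat. Chromatin immunoprecipitation was followed by sequencing (ChIP-seq) with antibodies against FLI1 and RUNX1, beside input chromatin. All 3 libraries came from the same kind of culture, and the methods give pooling of at least 3 precipitates, so there is 1 library per antibody and no replicate. Labels and methods differ on the library kit, the least amount of DNA and the fragmentation of the input chromatin. The labels also name CD41, the MK antigen encoded by Itga2b, among the antibodies for depletion of other lineages, whereas the methods do not.

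FLI1 is a transcription factor of the ETS family, whose members share a DNA-binding domain that recognizes the core GGAA and its neighboring bases. It is required for MK maturation and platelet production, and its loss causes thrombocytopenia in mice and in people. Promoters in CpG-rich DNA often carry ETS sequences close to the TSS and belong in large part to genes that most cell types use.

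Sequences of 11 regions show the patterns described here. They are 60 bases to either side of the FLI1 summit (the positions covered by most FLI1 reads), ended at the nearest exon, and are written 5′ to 3′ on the plus strand of mm9. Capitals mark the ETS consensus, which is the core GGAA with CA or CC before it and A or G after it, on either strand. The first 3 are the strongest regions whose summit lay outside exons, at Pigm (chr1:174306506-174306626), Utp3 (chr5:88983236-88983356) and D730045B01Rik (chr5:152171172-152171292). The next 3 are the strongest regions at platelet and MK genes, at Tpm3 (chr3:89884200-89884320), F2rl3 (chr8:75285384-75285504) and Itga2b (chr11:102331449-102331569). Rasgrp2 (chr19:6402068-6402188) is a further strong platelet gene outside CpG-rich DNA. Nr1h2 (chr7:51809322-51809433) is shown for its 5 ETS motifs, Snx11 (chr11:96638970-96639090) for a palindrome of overlapping ETS motifs, Ppp4c (chr7:133935986-133936105) for an ETS motif with TGACG directly after it, and Tmem229b (chr12:80081802-80081922) for a summit with no GGAA within 50 bp.
Pigm: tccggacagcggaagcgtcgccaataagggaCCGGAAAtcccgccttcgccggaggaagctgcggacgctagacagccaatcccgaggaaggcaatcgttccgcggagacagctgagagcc
Utp3: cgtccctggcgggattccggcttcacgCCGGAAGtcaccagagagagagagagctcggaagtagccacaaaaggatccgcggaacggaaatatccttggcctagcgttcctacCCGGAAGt
D730045B01Rik: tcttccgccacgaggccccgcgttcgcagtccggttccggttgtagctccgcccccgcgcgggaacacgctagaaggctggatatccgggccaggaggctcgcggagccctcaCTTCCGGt
Tpm3: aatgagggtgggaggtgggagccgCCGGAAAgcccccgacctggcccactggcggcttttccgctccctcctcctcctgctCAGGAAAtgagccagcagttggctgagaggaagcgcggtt
F2rl3: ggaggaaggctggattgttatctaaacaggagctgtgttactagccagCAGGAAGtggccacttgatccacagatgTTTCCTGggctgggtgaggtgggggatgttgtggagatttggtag
Itga2b: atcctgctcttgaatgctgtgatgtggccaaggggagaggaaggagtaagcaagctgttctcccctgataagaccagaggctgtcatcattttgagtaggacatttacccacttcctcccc
Rasgrp2: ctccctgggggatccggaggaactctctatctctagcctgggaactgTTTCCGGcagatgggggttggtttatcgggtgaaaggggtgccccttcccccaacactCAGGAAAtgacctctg
Nr1h2: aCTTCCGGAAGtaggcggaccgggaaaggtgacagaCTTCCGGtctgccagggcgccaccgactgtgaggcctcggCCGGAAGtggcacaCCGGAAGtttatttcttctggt
Snx11: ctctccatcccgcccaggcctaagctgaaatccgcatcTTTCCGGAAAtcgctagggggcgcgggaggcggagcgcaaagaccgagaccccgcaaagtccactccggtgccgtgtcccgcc
Ppp4c: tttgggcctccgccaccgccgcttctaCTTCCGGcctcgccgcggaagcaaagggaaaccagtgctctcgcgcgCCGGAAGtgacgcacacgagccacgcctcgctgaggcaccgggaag
Tmem229b: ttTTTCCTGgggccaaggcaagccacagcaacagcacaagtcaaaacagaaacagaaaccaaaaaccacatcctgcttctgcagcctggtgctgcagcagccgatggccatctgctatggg

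The libraries held 62946422 FLI1, 3973856 RUNX1 and 21745220 input reads after repeated positions and chromosome M were left out. The bins held between 100 and 412 FLI1 reads, with a median of 133 and a mean of 146.6, which was 15.46 times the mean of 9.484 over all bins. Their RUNX1 reads averaged 2.398 (median 2, and 310 bins held none), against a mean of 0.5987 over all bins and 0.962 over bins near a TSS. The RUNX1 file used here holds far fewer reads than the supplement of the study lists for this antibody. With so few RUNX1 reads, the limit of 6 selects bins by a small count and does not show that RUNX1 was absent. Input reads averaged 4.254 in these bins, 1.299 times the mean over all bins. All these counts were used to choose the bins, so they are given as a description. A read was counted once per position and strand, which leaves 800 places in a bin, and the strongest bin filled 51.5% of them. Among all bins under the RUNX1 and input limits, 0.0988% held 100 or more FLI1 reads, and among those near a TSS 1.92% did.

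Bins next to each limit were as follows. A bin near Bcs1l held 100 FLI1 reads and was kept, and a bin near Rrs1 held 99 and was not. A bin near Tceb1 was kept with 5 RUNX1 reads, whereas a bin near Ogfrl1 with 122 FLI1 reads was left out with 6. For input, a bin near Cwc22 with 14 reads was kept, and a bin near Edc4 with 16 was not. Near Vav3 the bin centre lay 1000 bp from the TSS, and near Rasa3 a bin with 108 FLI1 reads lay 1002 bp away and was left out. In all, 58 bins stood at exactly 100 FLI1 reads and 68 bins at 99, and 75 regions (2.92%) touched a bin that was left out for its RUNX1 or input reads. The FLI1 counts of the regions fell off steeply, with 975 regions at 100 to 124 reads in the strongest bin, 305 at 200 to 299 and 23 at 300 or more.

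The 10 strongest regions held 335 to 412 FLI1 reads in a bin, and of their nearest genes Tpm3 is also on a list of MK genes. Pigm, a mannosyltransferase that helps to build glycosylphosphatidylinositol anchors, held 412 FLI1, 4 RUNX1 and 4 input reads in its bin. Utp3, a factor of ribosomal subunit assembly, held 406, 4 and 1 in the same order. At D730045B01Rik, 2 joined bins held 485 FLI1 reads, 379 of them in the stronger bin, beside 6 RUNX1 and 9 input reads. Next came Atp6v1d, a subunit of the vacuolar proton pump, with 371 FLI1 reads, Chchd5 with 359, and Mcl1, a survival factor of the BCL2 family, with 358. Txnl4b (356), the tropomyosin gene Tpm3 (345), Ssbp1, which coats single-stranded mitochondrial DNA (336), and Zcchc6, which adds uridines to RNA ends (335), completed the list. FLI1 reads in these 10 regions exceeded RUNX1 and input reads by a wide margin in each case, since the limits allow no other outcome. Regarding the place of the summit, 7 of these 10 summits lay within 100 bp of the TSS and that of D730045B01Rik was farthest, 515 bp downstream.

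Reads around the summits were narrow for FLI1. Within 50 bp of the summit FLI1 reads stood at 35.5 times their mean rate over the genome, and beyond 1500 bp at 1.65 times. RUNX1 reads, although limited to fewer than 6 per bin, also rose toward the same positions, from 1.49 times beyond 1500 bp to 6.1 times within 50 bp. Input reads stood at 1.26 times beyond 1500 bp and 1.32 times within 50 bp, and ranged between 0.908 and 1.79 times over 50-bp steps. The highest step lay 150 to 200 bp upstream of the summit and the lowest 250 to 300 bp downstream, in the direction of the gene. In the 1295 regions with exactly 1 ETS motif near the summit, FLI1 reads on the strand of the motif were densest 58 bp before its center and reads on the other strand 50 bp after it, 108 bp apart.

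**Figure D1:**
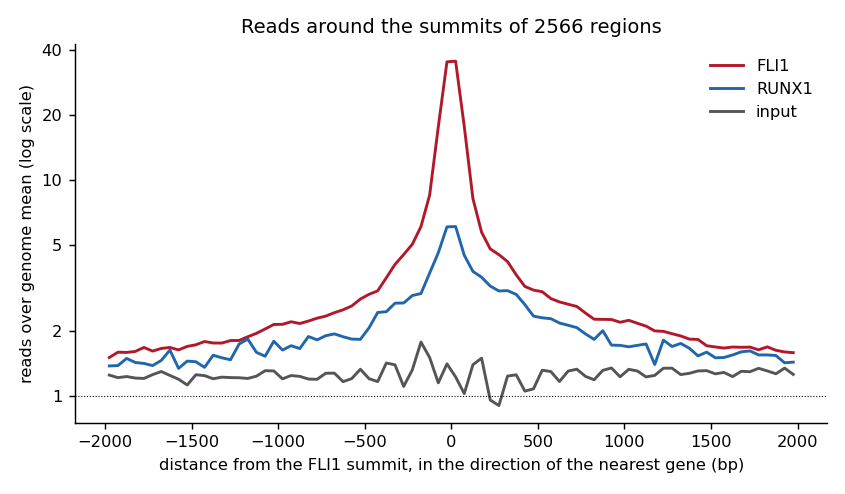
Mean reads of the FLI1, RUNX1 and input libraries in steps of 50 bp around the summits of 2566 regions, divided by each library's mean over the genome (log scale), with the nearest gene running to the right. FLI1 peaks at 35.6 and RUNX1 at 6.11 in the step next to the summit, and input stays between 0.908 and 1.79.

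The DNA letters were not used to choose the regions, and they held ETS sequences at most summits. The ETS consensus lay within 50 bp of 1836 of 2566 summits (71.55%), against 7.775% of windows of the same length 500 bp to either side and 15.57% of all protein-coding gene starts. The form CCGGAAG lay at 42.75% of summits, 1.461% of the flanking windows and 6.787% of gene starts. CCGGAAG was thus 29.25 times as frequent at summits as in their flanks, CCGGAAA 18.13 times, CAGGAAG 5.325 times and CAGGAAA 3.364 times. The ratios depend on the flanks, which held these forms at 1.461%, 0.8963%, 3.118% and 2.514% in the same order. Regions with each form had similar median FLI1 counts, at 144, 148, 134.5 and 141. Utp3, with CCGGAAG to the left of its summit, and Pigm, with CCGGAAA, show these forms, whereas F2rl3 has CAGGAAG and CAGGAAA on opposite strands. The core GGAA alone was at 97.74% of summits and 66.5% of flanks. A match of letters describes the DNA and is not proof of a bound site.

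All sequences of 8 bases were also ranked without a motif in mind. Of 296 sequences present at 2% or more of summits, 22 of the first 25 by their frequency over the flanks held the core GGAA, and the first were CCGGAAAT (4.326% of summits, 74.67 times the flanks) and CCGGAAGT (22.17%, 63.33 times), with 1 added to each count before the ratio was taken. The first without the core was AAGTGACG, at 120 summits and 5 flanks, followed by TGACGTCA, the cyclic AMP response element (CRE), at 65 summits and 4 flanks. Against all gene starts these 2 sequences with a count there differed far less. CCGGAAGT lay at 22.17% of summits and 3.206% of gene starts (6.917 times), and the CRE at 2.533% and 1.596%. The ranking used the flanks only, which were not matched for CpG content, and the sequences ranked first hold a CpG. GGAAG directly followed by TGACG lay at 114 summits (4.443%), 2 flanks and 0.769% of gene starts. Around a CGGAA, the sequence of bases TGACG most often started 6 bases after its first base, in 99 regions, and the next most frequent offset was found in 20. Ppp4c, the catalytic subunit of protein phosphatase 4, shows this arrangement and held 349 FLI1, 6 RUNX1 and 3 input reads in 2 joined bins. These composite regions had a median of 137.5 FLI1 reads in the strongest bin, against 136 over all regions. The median was 140 in 1695 regions with an ETS motif but neither this arrangement nor the palindrome described below. Of the composite regions 6.14% held 200 or more reads, against 14.99% of those 1695.

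Overlapping ETS motifs on opposite strands formed a palindrome in 57 regions (2.221%), 4 flanking windows and 0.2146% of gene starts. Of 777 pairs of ETS motifs within the windows, 59 had the spacing of the palindrome and the next most frequent spacing held 25. Snx11, a sorting nexin, had 301 FLI1, 2 RUNX1 and 4 input reads at such a palindrome, and Nr1h2, which encodes a nuclear receptor for oxysterols, had 294, 4 and 0. The median FLI1 count of the 57 regions was 165. Regions with more motifs held more reads. The median in the strongest bin was 126 in 730 regions with no ETS consensus, 136 in 1295 regions with 1 motif, 151 in 448 with 2, 168 in 79 with 3 and 207 in 14 with 4 or more. The ranges overlapped widely, since regions with no motif reached 379 reads and regions with 3 motifs began at 100.

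Across all bins near a TSS and under the RUNX1 and input limits, the share that held the ETS consensus anywhere in the bin grew with the FLI1 count. It was 25.34% (exact 95% interval 24.95 to 25.72) in bins of 0 to 9 reads, 52.71% (51.43 to 54) at 50 to 99, 76.51% (74.48 to 78.46) at 100 to 149, 87.24% (84.5 to 89.65) at 150 to 199 and 91.49% (87.93 to 94.27) at 200 or more. The intervals cover counting error only. CCGGAAG went from 2.173% to 66.57% over the same bins, while mean input reads moved between 2.98 and 4.39 per bin. Mean RUNX1 reads went from 0.542 to 2.67 per bin, within the limit of 6. The bin centers also came closer to the TSS, from a median of 500 bp in the lowest class and 535 bp in the next to 84 bp in the highest, and the share that was CpG-rich went from 10.98% and 10.08% to 79.64%. FLI1 reads, RUNX1 reads, distance and composition thus moved together, and the part of each was not tested.

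**Figure D2:**
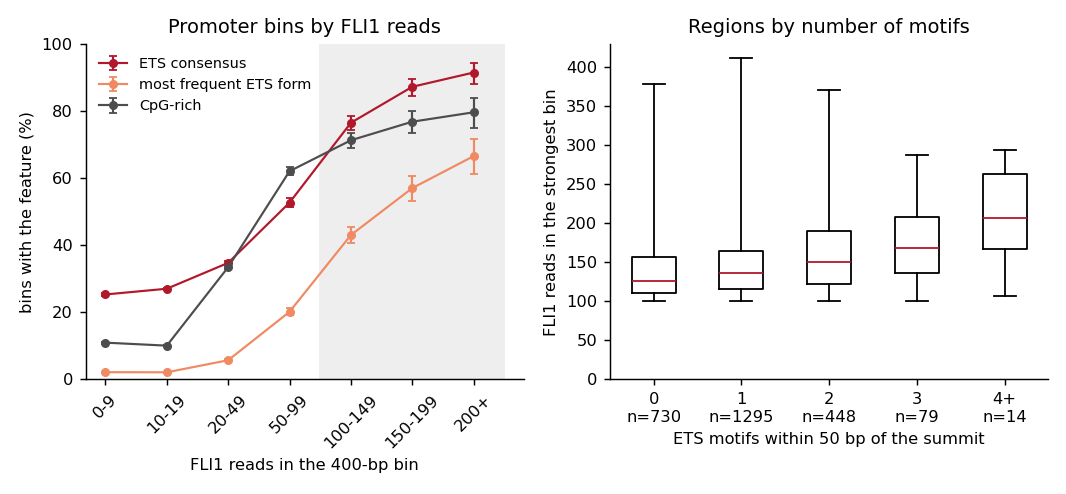
Left, share of 400-bp promoter bins with the ETS consensus, its most frequent form CCGGAAG, or CpG-rich DNA, by FLI1 reads, with exact 95% intervals and the selected classes shaded. Right, FLI1 reads in the strongest bin by the number of ETS motifs within 50 bp of the summit (line, median; box, quartiles; whiskers, lowest and highest), where medians go from 126 to 207.

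A minority of regions had no ETS consensus at the summit. Of these 730 regions, 672 still held GGAA and 58 (2.26% of all) did not, against 33.5% of flanking windows without it. The strongest of the 58 was at Tmem229b, with 179 FLI1, 5 RUNX1 and 10 input reads, where a TTTCCTG lay just beyond 50 bp from the summit. Gxylt1, a xylosyltransferase, followed with 177, 4 and 3, and Gnptg, a subunit of the enzyme that tags lysosomal proteins, with 173, 3 and 4. The third strongest region of all, at D730045B01Rik, had no consensus within 50 bp but CTTCCGG near the end of the printed stretch.

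The summits lay close to the TSS and mostly before it. The median position was 26 bp upstream, with quartiles at -86 and 7 bp, although the rule allowed 1 kb to either side. Of 2566 summits, 1719 (66.99%) were within 100 bp of a TSS and 199 were more than 500 bp away. The summit was upstream of the nearest TSS in 1794 regions, or 69.91% (exact 95% interval 68.1 to 71.68). ETS motifs near the summits had a median position 17 bp upstream, and 53.03% of them lay from 50 bp before to 50 bp after the TSS. Their orientation was even, with 1253 of 2538 motifs (49.37%, 47.41 to 51.33) on the strand of the gene. By the annotation, 1280 summits were outside protein-coding genes, 813 in an exon outside the coding sequence, 420 in an intron and 53 in a coding exon. Upstream refers to the nearest transcript start, so such a summit can lie inside a gene, as in an intron at Tpm3.

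**Figure D3:**
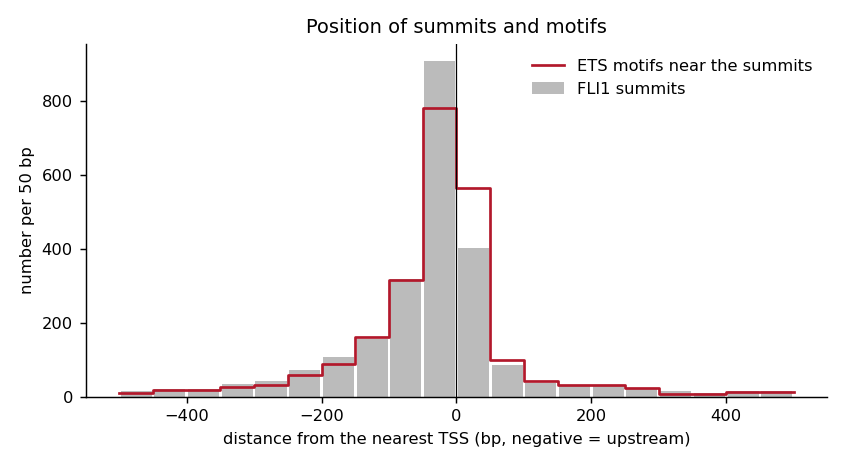
Number of FLI1 summits (bars) and of ETS motifs within 50 bp of them (line) per 50 bp around the nearest TSS, with negative values upstream. The step just before the TSS holds 909 summits and 782 motifs, and the step just after it 403 and 564.

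Regions far from the TSS differed in sequence from those close to it. CpG-rich DNA here means 400 bp around the summit with more than 50% G and C and a ratio of observed to expected CpG above 0.6. It surrounded 84.6% of summits within 100 bp of the TSS, 76.2% of those at over 100 to 500 bp and 34.7% of those farther away. CCGGAAG fell from 48.7% to 33.2% and 22.1% over the same classes. In contrast, AGATAA, the sequence bound by GATA factors, went from 1.69% to 3.7% and 8.04%. CCGGAAG holds a CpG and AGATAA holds none, so their shares are not independent of the CpG-rich share. The widest region was at Zfp668 (1600 bp, 664 FLI1, 12 RUNX1 and 15 input reads in all). Next came 6 regions of 1200 bp, among them those at Gm7461 (547, 9 and 17) and Ptpn7, a tyrosine phosphatase of blood cells (416, 7 and 33).

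CpG-rich DNA made up 78.64% of the regions (exact 95% interval 77.01 to 80.22). The share was 46.81% over all protein-coding gene starts, 68.78% over 5032 regions near a TSS with 50 to 99 FLI1 reads and 80.71% over 420 promoter regions with as many FLI1 reads but 6 or more RUNX1 reads. In contrast, it was 3.151% (2.487 to 3.934) over 2380 regions that met the same read limits more than 10 kb from any TSS. The distant regions held the ETS consensus about as often, at 70.38%, but CCGGAAG at 8.487% against 42.75%, AGATAA at 14.16% against 2.689%, and the RUNX sequence (TGCGGT or TGTGGT) at 23.36% against 9.977%. The 420 promoter regions with 6 or more RUNX1 reads held the ETS consensus at 60.95% and CCGGAAG at 37.86%, so a high CCGGAAG share was common to both promoter groups. SP1 boxes (GGGCGG) lay at 35% of promoter summits and 4.622% of distant ones, but also at 30.81% of all gene starts. Compared with all gene starts, promoter summits had TATAAA less often (0.8574% against 5.665%) and CCAAT less often (12.82% against 17.68%). TATAAA was also infrequent in the promoter regions with 50 to 99 FLI1 reads (1.252%) and in those with 6 or more RUNX1 reads (1.905%). CCAAT lay at 17.31% and 13.1% of these. The regions with 50 to 99 FLI1 reads can include bins that adjoin a stronger bin, so they are not all separate promoters. Matches were counted on both strands in windows of 101 bases, and the ETS sequences named here overlap each other. The shares of CCGGAAG, which holds a CpG, and AGATAA, which holds none, are not independent of the CpG content of each group.

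Among the regions themselves, the 548 outside CpG-rich DNA lay between the CpG-rich and the distant ones in 3 of these sequences, but not in the ETS consensus. They held CCGGAAG at 16.79%, against 49.8% in the 2018 CpG-rich regions and 8.487% in the distant ones. AGATAA lay at 9.124%, 0.9415% and 14.16% in the same order, and the RUNX sequence at 19.16%, 7.483% and 23.36%. The ETS consensus was at 68.43%, 72.4% and 70.38%. The median FLI1 count was 130 in the 548 regions and 138 in the CpG-rich ones. Itga2b, F2rl3 and Rasgrp2, printed above, belong to the group outside CpG-rich DNA, with observed over expected CpG of 0.11, 0.08 and 0.30, whereas Pigm stood at 0.91 and Utp3 at 1.07.

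Seen from the genes, 2916 of 22365 protein-coding genes (13%) had such a bin within 1 kb of a TSS, and 14.8% had a bin of 100 or more FLI1 reads without the other limits. A gene start in CpG-rich DNA had one in 22.5% of cases (21.7 to 23.3, 10465 genes), and other starts in 4.73% (4.36 to 5.13, 11894 genes). CpG-rich starts with CCGGAAG had one in 54.3% (51.6 to 57.1, 1279 genes) and CpG-rich starts without the ETS consensus in 16.2% (15.4 to 17, 8481 genes). Outside CpG-rich DNA, starts with CCGGAAG had one in 19.1% (14.3 to 24.7, 236 genes) and starts without the consensus in 3.89% (3.53 to 4.28, 10399 genes). Thus the same letters at the start were accompanied by strong FLI1 signal less often outside CpG-rich DNA, and of the 1279 CpG-rich genes with CCGGAAG at the start 695 had such a bin. Motifs of a start were searched in a 101-base window there, whereas the bin could lie anywhere within 1 kb of a TSS. A bin counted for a start without the consensus could therefore hold the consensus itself. How many of these bins did was not tested.

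Platelet and MK genes had these bins more often than genes at large. Of 218 genes in 5 lists of such genes, 74 (33.9%) had one, against 13% of all protein-coding genes. By list these were 13 of 39 surface receptors and adhesion molecules, 15 of 41 granule genes, 15 of 47 signalling genes, 20 of 56 cytoskeletal genes and 11 of 36 transcription factors. A further 10 of the 218 had 100 or more FLI1 reads but were over the RUNX1 or input limit. The lists are not limited to genes particular to MKs. They hold widely used genes such as Actb, Cfl1, Pfn1 and Rac1, each with a bin. Vps16 and Vps18, both with a bin, are also counted with the vesicle coats and tethers, and Klf1, Ank1 and Spna1 with the erythroid genes. The lists were drawn up with earlier results of these data known, so the shares are a description.

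Among the receptors, F2rl3, a thrombin receptor of platelets, held 487 FLI1, 5 RUNX1 and 15 input reads in 2 joined bins, with 317 FLI1 reads in the stronger. Itga2b, the alpha subunit of the fibrinogen receptor and a defining MK marker, held 527, 7 and 13 in 2 bins. P2rx1, an ATP-gated channel, held 238, 5 and 3, and the adhesion molecule Pecam1 held 216, 2 and 6. These summits lay 335, 312, 153 and 47 bp upstream of the TSS. The glycoprotein gene Gp5 held 176, 0 and 6.

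Signalling and granule genes reached similar counts. Rasgrp2, an activator of the small GTPase Rap1 in platelets, had 311 FLI1, 2 RUNX1 and 5 input reads 410 bp downstream of a TSS. Its weaker regions of 107 and 103 FLI1 reads lay 742 and 122 bp upstream of their nearest starts. Rgs18, a regulator of G-protein signalling, had 250, 5 and 5. Pf4, the platelet chemokine platelet factor 4, had 431, 5 and 8 in 2 bins. Nbeal2, a gene needed for alpha granules, had 237, 2 and 11, and Vps33b, another gene of alpha granule formation, 211, 1 and 4. In all of these the summit was within 100 bp of the TSS except at Rasgrp2.

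Of the cytoskeletal genes, Tpm3 held 345 FLI1, 4 RUNX1 and 1 input reads, and the talin gene Tln1, which links integrins to actin, held 261, 2 and 5 in its stronger region and 149, 2 and 8 in the other. Transcription factor genes included Fli1 itself, with 219, 5 and 5 reads and a summit 316 bp upstream of its TSS, and Sfpi1, which encodes PU.1, with 191, 3 and 10. Stat3, listed with the signalling genes, had 191, 3 and 3. At Nfe2, which encodes a factor of late MK maturation, the selected bin held 202 FLI1 reads, but the strongest bin held 413 with 19 RUNX1 reads and was left out. Lyl1 was alike, with 140 in the selected bin and 415 beside 11 RUNX1 reads in the strongest, and 59 genes with a selected bin had their strongest bin over a limit. Gp1ba (228 FLI1, 6 RUNX1) and Gp9 (142, 7), which encode parts of the receptor for von Willebrand factor, were left out by the RUNX1 limit alone.

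The MK label could not be checked against RNA, which was not analysed here. Of 17 MK and platelet markers, 8 had a selected bin, 2 more had 100 or more FLI1 reads over a limit and 7 had fewer than 100, among them Itgb3 with 85, Tubb1 with 77, Gata1 with 54, Ppbp with 34 and Selp with 24 in their best promoter bin. The 8 of 17 are 47.1%, beside 13% of all protein-coding genes. None of 7 erythroid markers had one, and their best bins held 10 to 53 FLI1 reads. Of 7 granulocyte and macrophage markers, Mpo alone had one, with 133 FLI1, 2 RUNX1 and 5 input reads. With 7 genes each, neither of these counts stands apart from the share of all genes.

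Genes for general cell machinery had these bins at similar or higher shares, from 30.8% to 55.6%. They were found at 30 of 54 spliceosome genes, 43 of 82 genes for cytosolic ribosomal proteins, 33 of 64 for vesicle coats and tethers, 28 of 76 for mitochondrial ribosomal proteins, 12 of 37 for aminoacyl-tRNA synthetases and 12 of 39 for proteasome subunits. Respiratory chain genes, matched by the start of their symbols, gave 30 of 92, a count that includes the assembly factor genes Ndufaf1 and Sdhaf2 and Cox4nb, which encodes no subunit. Prpf19, a ubiquitin ligase of the spliceosome, had 299 FLI1 reads, 4 RUNX1 and 2 input reads. Rps19, of the small ribosomal subunit, had 301, 4 and 6, Psma6, of the proteasome core, had 279, 2 and 1, and Exoc3, of the exocyst, had 254, 3 and 5. Mrpl47 and Ndufb5 each had 254, 5 and 5 because they share a promoter, so neighboring genes are not independent counts.

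Survival, cell cycle and RAB genes gave 37.5%, 26.1% and 28.6%. Of 32 apoptosis and survival genes 12 had a bin, led by Mcl1 with 358 FLI1 reads, Bad with 238, Casp8 with 189 and Bcl2l1, which encodes the platelet survival factor BCL-XL, with 176. Endomitosis and cell cycle genes gave 12 of 46, with Incenp at 247 and Orc1 at 210. The 46 include Cdh1, which encodes the adhesion protein E-cadherin and had no such bin. RAB GTPases gave 16 of 56, with Rab21 at 259 and Rab11a at 206. Zinc finger protein genes gave 61 of 340 (17.9%). Erythroid genes gave 5 of 37 (13.5%, exact 95% interval 4.54 to 28.8), near the 13% of all genes, all of them with a CpG-rich start, with Slc25a38 at 207 and the transferrin receptor gene Tfrc at 179. Granulocyte and macrophage genes gave 3 of 39, of which Sfpi1 and Fcer1g are on the platelet and MK lists as well. Lists of 35 lymphoid, 44 neuronal and muscle and 1087 olfactory receptor genes gave 0, with best bins of at most 49, 72 and 74 FLI1 reads. Only 5.71%, 40.9% and 0% of these genes had a CpG-rich start, in the same order. Over all genes, 22.5% of those with a CpG-rich start had a bin and 4.73% of the others.

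**Figure D4:**
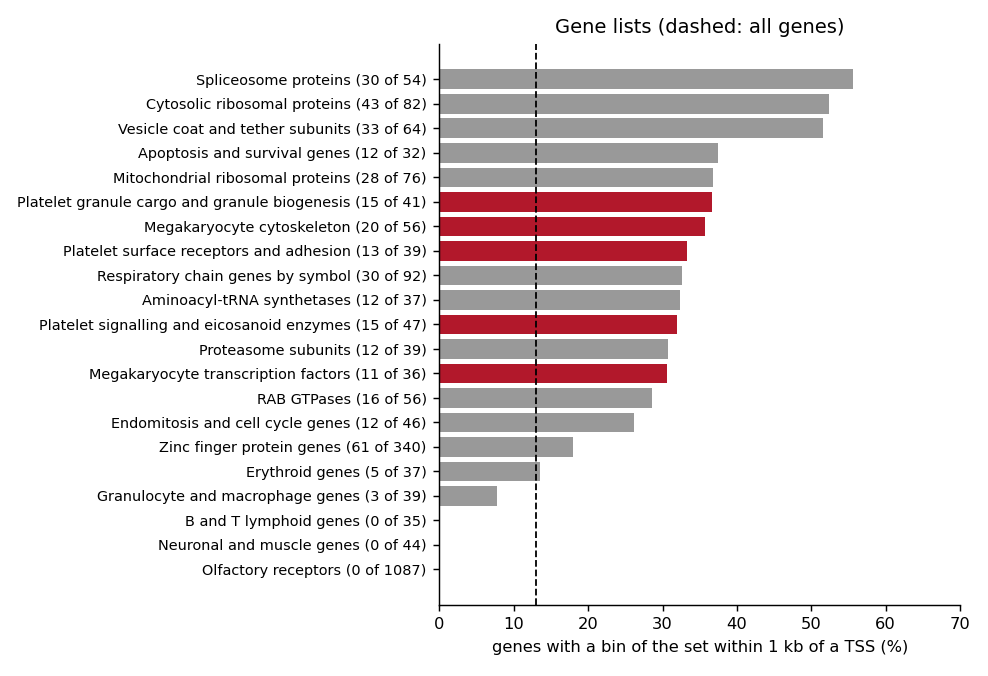
Share of the genes of each list with a strong FLI1 bin within 1 kb of a TSS, with numbers of genes in parentheses, platelet and MK lists in red and the share of all protein-coding genes (13%) as a dashed line. Spliceosome genes have the highest share, 30 of 54, and 3 lists have none.

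Genes of the platelet and MK lists and genes of the general lists reached these counts in different DNA. Only 37.8% of the 82 regions nearest to platelet and MK genes were CpG-rich, against 78.6% of all regions, 90.5% of 42 at cytosolic ribosomal genes and 96.3% of 27 at spliceosome genes. CCGGAAG, which holds a CpG and so is not independent of the CpG-rich share, lay at 18.3% of the platelet and MK regions. It lay at 42.8% of all regions and 55.6% of spliceosome regions. Low shares of CCGGAAG were also found at RAB (11.8%), apoptosis and survival (21.4%) and cell cycle genes (23.1%), and the other lists with 10 or more regions gave 36.4% to 62.1%. The ETS consensus was at 64.6% of platelet and MK, 71.6% of all and 74.1% of spliceosome regions, and among lists with 10 or more regions its share was lowest at the 17 regions of RAB genes (47.1%). AGATAA was at 11 of the 82 (13.4%) against 2.69% of all. In the 548 regions outside CpG-rich DNA, CCGGAAG lay at 16.79% and AGATAA at 9.124%. Only 31 of the 82 platelet and MK regions were CpG-rich, so most of the 82 are themselves among these 548. Their nearness to the shares of the 548 is thus partly built in. Regarding read counts, the median FLI1 count was 138.5 in the platelet and MK regions against 136 over all regions.

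The genes were also divided by the DNA at their start, although the bin could lie elsewhere within 1 kb of a TSS. Of the 218 platelet and MK genes, 57.8% had a CpG-rich start, against 46.8% of all genes. Of the 126 with a CpG-rich start 37 had a strong FLI1 bin (29.4%, against 22.5% of all such genes), and of the 92 with another start 37 had one as well (40.2%, against 4.73%). By list, 12 of 28 receptors without a CpG-rich start had a bin and 1 of 11 with one did. No erythroid gene (of 23) and no RAB gene (of 18) without a CpG-rich start had one. Of the granulocyte and macrophage genes without such a start, 3 of 35 had one. With so few genes, these counts do not stand apart from the 4.73% of all genes without a CpG-rich start. With a CpG-rich start, 5 of 14 erythroid genes (35.7%) and 16 of 38 RAB genes (42.1%) had one. High shares were not particular to platelet and MK genes, since without a CpG-rich start 8 of 15 cytosolic ribosomal, 3 of 5 spliceosome, 4 of 8 vesicle coat and tether and 5 of 13 mitochondrial ribosomal genes had one.

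**Figure D5:**
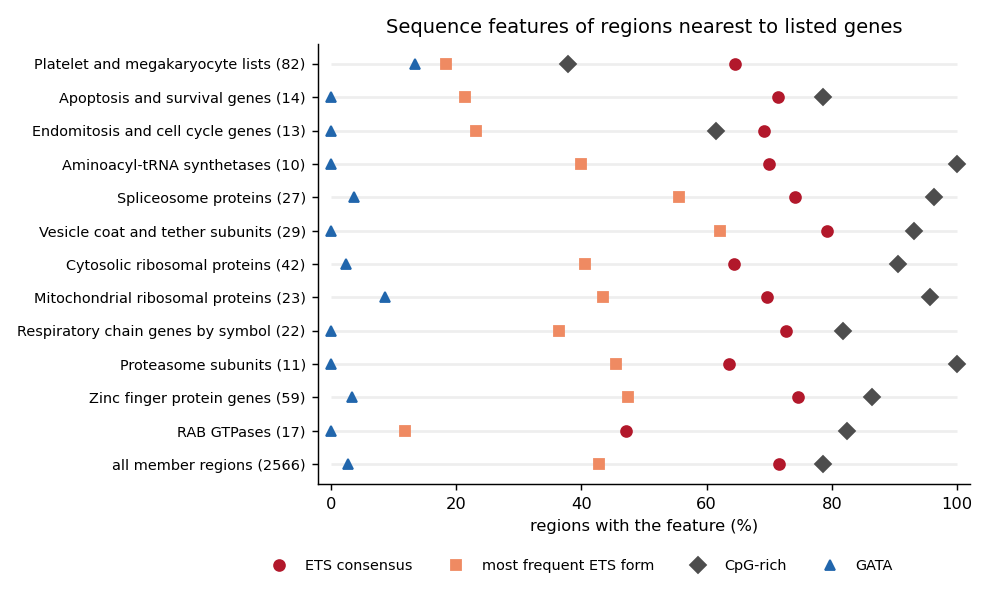
Share of regions with the ETS consensus, its most frequent form CCGGAAG, the GATA sequence or CpG-rich DNA among regions nearest to the genes of each list, with numbers of regions in parentheses and lists of 10 or more regions shown. The platelet and MK regions have the lowest CpG-rich share (37.8%) and the highest GATA share (13.4%).

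Divergent genes, whose starts lie within 1 kb of each other on opposite strands and point away from each other, were frequent. Of divergent genes 33.77% (exact 95% interval 31.45 to 36.15, 1599 genes) had a strong FLI1 bin, against 11.44% (11.01 to 11.88) of 20768 others. Such a pair had a start within 1 kb of the summit at 273 regions, with a median of 126 bp between them, and the summit lay between the starts in 136 of these (49.8%, 43.7 to 55.9). A bin between 2 starts is counted for both genes, and its part in the share was not tested.

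Genes on the X chromosome rarely had such a bin. On autosomes 13.48% of 21416 genes had one (13.02 to 13.94), and on X 3.219% of 932 (2.182 to 4.563). The X chromosome had fewer reads per base in every library, at 0.566 of the autosomal rate for FLI1, 0.617 for RUNX1 and 0.539 for input, while the limit of 100 reads was the same. With the limit on X lowered in the same proportion, to 56.62 reads, 11.59% of X-linked genes (9.603 to 13.82) had one.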

How the data were processed

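ChIP-seq of MK Mat cells gave 3 libraries: FLI1, RUNX1 and input. Bowtie, whose version is not given in the sources used here, was used by the authors for alignment to mm9, and reads that mapped once and did not repeat a position were kept. The deposited values are other than counts: each line gives a read's chromosome, start, end and strand, with no normalization by the authors. The submitters' processing notes also name SICER 1.1 and MACS 1.4, which were not used here. The aligner of the input file is not given in the sources used here, and 3.238% of its reads repeated a position.

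Here, reads were counted in 400-bp bins by their 5′ end moved 63 bp (FLI1) or 80 bp (RUNX1, input) inwards, 1 per position and strand, without chromosome M. Of 10000 reads checked against NCBIM37 (mm9), 96.94% (FLI1) and 98.25% (RUNX1) matched with at most 3 mismatches. TSSs were the 5′ ends of protein-coding transcripts of GENCODE M1. The summit is the middle of the positions that most FLI1 reads, extended to 126 bp, cover. Motifs were searched in 101-base windows on both strands. Windows for all gene starts were centered 26 bp upstream of the start, the median position of the summits. Gene lists were matched by symbol, 15 symbols through older names in RefSeq. Shares carry exact (Clopper-Pearson) 95% intervals, which cover counting error only. With 1 library per antibody no test was made.

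The regions and lists were chosen with earlier results of these data known. Named are the genes of the 10 strongest regions, up to 15 platelet and MK genes by FLI1 reads and the 3 strongest regions without GGAA. Also named are 3 of the widest regions, those next to each limit and up to 4 genes per other list. Further list genes, markers and the examples of composite motifs were named after their values were seen. Counting, summits and motifs were tested on simulated reads with planted sites. Python 3.11.15, numpy 2.4.6, pandas 2.3.3 and scipy 1.17.1 were used. Alternatives were another bin grid, shift, FLI1 minimum, TSS distance and TSS set, no RUNX1 or input limit, repeated input reads kept, and other motif and CpG definitions.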

Additional observations from a re-analysis of the deposited data

How the results depend on the processing

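No paired analysis was possible because each antibody has 1 library. Of 45 alternatives, 27 stayed near the reported value (within 1.5 times for the number of regions, within the 95% interval for shares) and 18 moved. With a minimum of 50 FLI1 reads there were 6679 regions, of which 54.36% had the ETS consensus near the summit, 67.78% had the summit upstream and 71.43% were CpG-rich. With 200 there were 328, and the shares were 81.4%, 72.26% and 81.71%. The ETS share was 78.8% within 100 bp of the summit, 42.75% for CCGGAAG and 97.74% for the core GGAA. Within 500 bp of a TSS, 71.94% of summits were upstream and 82.44% of regions CpG-rich, and within 2000 bp 73.8% were CpG-rich. With the starts of gene records only, 62.48% were upstream and 82.85% CpG-rich. With the higher of the CpG ratio limits, 60.21% were CpG-rich. Lowering the limit with the depth of X, an alternative chosen after seeing the data, gave 11.59% of X-linked genes in place of 3.219%. Bin grid, shift, RUNX1 limit, input limit and repeated input reads left the number of regions and the ETS, upstream and CpG-rich shares near their values. No cause was tested for these shifts. With 1 library per antibody, no difference could be set against the spread between replicates, and the small number of reads in the RUNX1 file limits what a small RUNX1 count shows.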

Other observations

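In the fifth of regions with most FLI1 reads (180 to 412 in the strongest bin) 81.71% had the ETS consensus, 35.8% had 2 or more copies and 52.92% had CCGGAAG, against 62.38%, 12.28% and 31.19% in the fifth with fewest (100 to 112). Mean input reads per region were 4.74 and 4.34 and mean RUNX1 reads 3 and 2.51.

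Regions near a bin left out for its RUNX1 or input reads held the ETS consensus in 62.7% of 75 cases, against 71.8% of the others. Recognition sequences of 4 further factors were looked at. AAGATGGC, the sequence of YY1, lay at 2.221% of summits and 1.189% of gene starts, and CACGTG, an E-box, at 3.819% and 3.662%. The NRF1 sequence lay at 0.4677% and 0.769%, and the AP-1 sequence (TGACTCA or TGAGTCA) at 1.715% and 1.444%.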
